A study of Danio rerio with 11 samples.

Results

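The transcriptome of the control full-grown ovarian follicle of the zebrafish (Danio rerio) was described from 3 control libraries, out of 11 libraries in the series. The controls were chosen by their sample labels, and genes were ranked by the mean of their deposited FPKM values, that is, fragments per kilobase of gene length and per 1000000 mapped reads. The females were 180 days post fertilisation and were heterozygous for all 4 of the gonadotropin and receptor genes studied (fshb+/-;lhb+/-;fshr+/-;lhcgr+/-), so that every control fish carried 1 altered copy of each, and no wild-type library was used. The labels do not give the kind of altered allele. The other 8 libraries, from fish that lacked lhb and lhcgr or fshb and lhcgr, were not compared with the controls here. Follicles above 650 µm were enriched with a 600 µm filter, picked by hand and lysed in Trizol, and messenger RNA was caught on poly-T beads for TruSeq libraries. The labels do not say outright that the 3 replicates were 3 fish or how many follicles each held, so the spread given here is that between libraries, which may be technical in part. With 1 group there was no contrast to test, so all values are descriptions and no p-value is given.

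A full-grown zebrafish follicle is a large oocyte, arrested in the first meiotic prophase, inside a thin wall. The oocyte stores the messenger RNA and protein with which the embryo will start and, in zebrafish, makes the zona pellucida proteins of its own egg envelope. Around it lie a layer of granulosa cells, which carry receptors for the gonadotropins, and an outer theca with steroid-producing cells, fibroblasts and blood vessels. Luteinizing hormone, acting on its receptor in this wall, is the signal for the oocyte to resume meiosis and for ovulation.

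The 3 controls held 15254518, 15233928 and 15554138 counts in genes, and 14980 of 35889 genes in the table (41.7%) had a mean of at least 1 FPKM. Of those 14980 genes, 608 (4.06%) reached a mean of 100 FPKM and 17 reached 1000. Another 9771 genes had no count in any control. The summed FPKM of a library was 445795, 522020 and 452808 in controls 1, 2 and 3. Over genes of at least 1 FPKM, Pearson's r of log2(FPKM + 1), across genes that are not independent replicates, was 0.915 between controls 1 and 2, 0.941 between controls 1 and 3 and 0.935 between controls 2 and 3.

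The transcriptome was led by the mitochondrial genome, whose protein genes took 12 of the 14 highest ranks. Together its 13 protein genes, which encode subunits of the respiratory chain and of ATP synthase, held 17.5% ± 5.69 (SD, n = 3) of the summed FPKM. Their share was 13.9% in control 1, 24.1% in control 2 and 14.6% in control 3, so control 2 stood above the other controls. The most abundant single transcript, mt-co1, a subunit of cytochrome c oxidase, was at 14937, 33306.5 and 14449.8 FPKM. The next, mt-co2, was at 11371, 23524.5 and 9542 FPKM, again highest in control 2. The lowest of the 13 was mt-atp8, an ATP synthase subunit, at 373, 321 and 325 FPKM in rank 139.

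Only 1 gene outside the mitochondrial genome stood among the 9 highest ranks. This was the gene model CABZ01084501.3 (ENSDARG00000116066), in rank 4 at 7418, 14908 and 7265 FPKM, from 288193, 554681 and 305014 counts. The symbol table pairs it with MFAP4, the symbol of a microfibril-associated protein, a pairing that was not checked. It was highest in control 2, as most mitochondrial genes were. Below it came actb2, a cytoplasmic actin, at 1630.2, 2790.3 and 1612 FPKM, and h2af1al, a histone H2A variant, at 990.0, 1826 and 2019.8 FPKM. Actin was highest in control 2, whereas the H2A variant was lowest in control 1. The claudins cldnd and cldng, proteins of tight junctions, followed in ranks 16 and 18. cldnd was at 971, 1588 and 1357 FPKM and cldng at 723, 932 and 1042 FPKM in the 3 controls, lowest in control 1 for both genes. Further high transcripts were slc25a5, the ADP/ATP carrier of the inner mitochondrial membrane, at 829 ± 175 FPKM (SD, n = 3), mid1ip1l, a maternal factor of the early embryo's cytoskeleton, at 813 ± 107 FPKM, and the ribosomal protein genes rplp0 and RPL41 at 798 ± 222 and 788 ± 196 FPKM.

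The 100 most abundant genes of each control held 31.5% ± 6.07 of its summed FPKM (SD, n = 3). Each control's own 10 most abundant held 18.5% ± 6.18. The share of the 100 was 26.6% in control 1, 38.3% in control 2 and 29.6% in control 3. Without the 13 mitochondrial protein genes it was 18.4% ± 2.08. Of each control's own 100 most abundant genes, 71 were shared by all 3 controls. Roles were counted over the 100 genes with the highest mean. They held 12 protein genes of the mitochondrial genome, 12 cytosolic ribosomal protein genes and 11 genes of energy use and the cytoskeleton. Egg envelope genes numbered 8, oocyte factors 6 and granulosa genes 1 among these 100. No gene of the theca, endothelium, leukocyte, erythrocyte, muscle or liver lists was among them. The 100 also included 28 genes whose deposited name was a clone or locus name or was missing. Of these, 24 were in none of the lists. The symbol table pairs some of the 28 with a gene symbol. Clone or locus names, or none, were carried by 24.9% of the genes of at least 1 FPKM. The highest of the 28 after CABZ01084501.3 were wu:fi42e03 at 1113, 791 and 1369.7 FPKM and zgc:171781 at 804, 869.9 and 993 FPKM.

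**Figure D1:**
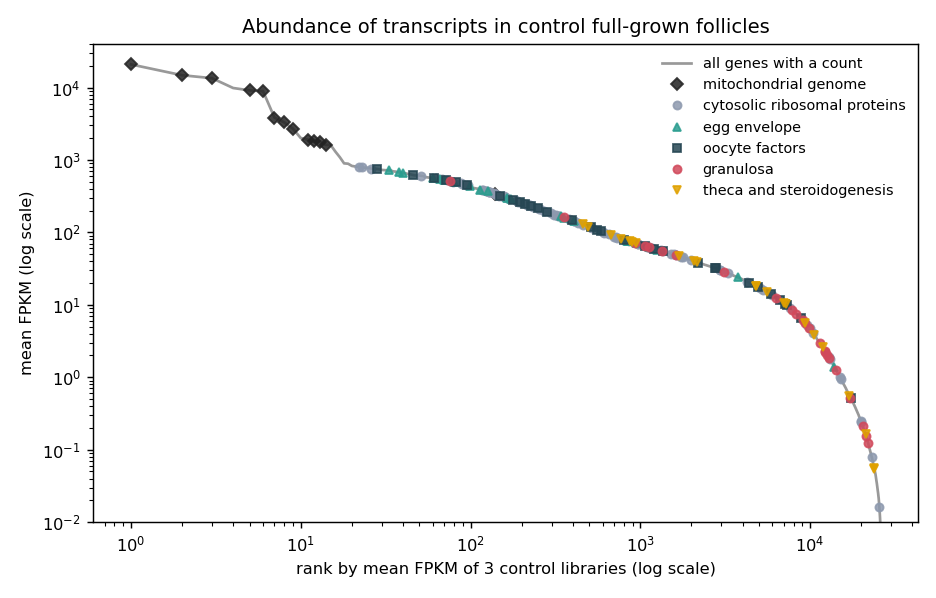
Mean FPKM of the 3 controls against rank, both on log scales, with the grey line for all genes that had a count and symbols for 6 gene lists. Mitochondrial genes fill 12 of the 14 highest ranks, egg envelope and oocyte genes lie mostly above 10 FPKM, and granulosa and theca genes spread from above 100 FPKM to under 1.

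Egg envelope transcripts summed higher than any of the other 4 lists of the oocyte and its divisions (oocyte factors, germ plasm, meiotic cell cycle, histones and chromatin). All 22 genes found for zona pellucida and related envelope proteins had a mean of at least 1 FPKM, against 41.7% of all genes, and 15 of the 22 reached 100 FPKM. They summed to 6180.0, 6382 and 7910.3 FPKM in controls 1, 2 and 3. The highest was zp3a.1 (ENSDARG00000042129), in rank 33 at 663, 638 and 861 FPKM. Its close relative zp3a.2 was at 606, 589 and 780.3 FPKM and zp3b at 402, 438 and 650.4 FPKM. All 3 were highest in control 3. The envelope genes si:dkeyp-50f7.2 and si:dkey-19b23.11, which the symbol table pairs with zpax1 and zpax4, were at 677 ± 95.1 and 565 ± 91.9 FPKM (SD, n = 3). None of the 21 envelope genes of at least 5 FPKM ranged by 1 log2 unit or more, that is 2-fold after 1 FPKM is added. Of all genes of at least 5 FPKM 17.9% did, a share not matched to the envelope list's median of 295 FPKM. Among other high lists, 1 of 32 energy and cytoskeleton genes and 6 of 13 mitochondrial genome genes did. Several envelope genes belong to families of close copies, among them a pair that shares the name zp3.2 at 536 and 303 FPKM, so the split of reads between copies is uncertain.

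Factors that the oocyte makes for itself and for the embryo were likewise high. Of 35 such genes found, 31 had a mean of at least 1 FPKM and 17 reached 100. The linker histone of the oocyte, h1m, was the highest at 566, 798 and 897 FPKM. It was followed by btg4, which links maternal messenger RNA to deadenylation, at 611, 519.6 and 728 FPKM, by org, an oogenesis-related gene, at 485, 577 and 632 FPKM, and by slbp2, the stem-loop-binding protein of oocytes, at 416, 497 and 678 FPKM. These 4 genes were all highest in control 3. buc, the organiser of the Balbiani body and germ plasm, was at 462, 397 and 496 FPKM, a spread of 0.32 on the log2(FPKM + 1) scale between its highest and lowest control. The oocyte growth factors bmp15 and gdf9 were at 119.9, 94.8 and 108 FPKM and 16.4, 20.4 and 24.2 FPKM, so bmp15 was the more abundant of the pair in each control. mos, the kinase that starts the MAP kinase cascade of meiosis, was at 215 ± 44.3 FPKM, cpeb1b, a regulator of cytoplasmic polyadenylation, at 322 ± 39.2 FPKM, and gdf3, a maternal Nodal partner, at 259.7 ± 66.1 FPKM (SD, n = 3). zar1, a repressor of maternal translation, varied more, at 104, 292 and 339 FPKM, and was lowest in control 1. tbx16, a mesodermal factor of the embryo, and both genes named wnt8a had no count in any control.

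The germ plasm and piRNA list, which does not include buc, was at moderate levels. Of 21 genes found, 19 had a mean of at least 1 FPKM and none reached 100. The highest were asz1, of the germ granule, at 58.1, 77.0 and 87.3 FPKM, ddx4, the vasa helicase, at 46.1, 48.7 and 99.7 FPKM, dazl, an RNA-binding protein of germ cells, at 47.1, 42.0 and 63.0 FPKM, and nanos3, a translational repressor of germ cells, at 46.1 ± 22.7 FPKM (SD, n = 3). Control 3 was the highest library for each of these 4. The germ line gene nanos2 was listed at 0 in controls 1 and 2 and at 0.140 FPKM in control 3.

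The machinery of meiotic division was present throughout. All 31 genes on the list had a mean of at least 1 FPKM and 11 reached 100. The B-type cyclins ccnb2 and ccnb1, partners of the kinase that drives entry into M phase, were at 519, 511 and 625 FPKM and 354, 485 and 566 FPKM. plk1, a kinase of M phase, was at 458, 275 and 324 FPKM and pcna, the sliding clamp of DNA replication, at 349, 292 and 288 FPKM, both highest in control 1. By comparison, cdk1, the kinase that pairs with the B-type cyclins, stood at 129 ± 22.6 FPKM (SD, n = 3), below both cyclins. Members of the histone and chromatin list included the H3.3 gene h3f3b.1 (ENSDARG00000020504) at 509.6, 533 and 577 FPKM and nasp, a histone chaperone, at 443, 392 and 454 FPKM, which differed little between controls. Poly-T beads catch few transcripts of replication-dependent histones, which have no poly(A) tail in most cells.

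Genes for uptake and processing of yolk were expressed, but those for the yolk precursors were near 0. Of 23 uptake and lysosome genes, 20 had a mean of at least 1 FPKM. lamp2, a protein of the lysosomal membrane, led at 537, 368 and 540.2 FPKM, with the cathepsin ctsba at 451, 491 and 288 FPKM. The lipoprotein receptor lrp13 was at 119, 114 and 137 FPKM and vldlr at 127, 102 and 92.2 FPKM, both with little spread. The aspartic protease ctsd and the cysteine protease ctsla varied more, at 101, 84.7 and 286 FPKM and 171, 219 and 421 FPKM, and both were highest in control 3. The vitellogenin genes, which the liver transcribes, had means of at most 0.083 FPKM, and the 24 liver-made protein genes summed to 4.25, 7.89 and 6.13 FPKM.

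In the follicle wall, the listed granulosa genes held a small share of the summed FPKM. This is not the share of all RNA from granulosa cells. Of 24 granulosa genes found, 20 had a mean of at least 1 FPKM, and together the list held 0.220% ± 0.0778 of the summed FPKM (SD, n = 3). The inhibin subunit inha stood far above the rest, in rank 76, at 436, 759 and 338 FPKM. Next came pgr, the nuclear progestin receptor, at 123, 234 and 126 FPKM, and nr5a1a, a nuclear receptor that drives steroidogenic genes, at 49.4, 130.3 and 36.9 FPKM. For all 3 genes control 2 was the highest library. The transcription factors gata4 and foxl2b were at 25.4, 112 and 49.3 FPKM and 37.3, 80.9 and 49.4 FPKM, and igf3, a gonadal insulin-like growth factor, at 40.2, 60.5 and 45.2 FPKM, again highest in control 2. In bulk libraries, fewer cells of a type and less RNA per cell cannot be told apart.

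Of the gonadotropin receptors, lhcgr was the more abundant, at 50.6, 109.5 and 33.7 FPKM, and fshr was at 2.12, 8.65 and 3.51 FPKM. In each control lhcgr exceeded fshr, and both receptors were highest in control 2. The aromatase gene cyp19a1a, whose product makes oestrogen, was low, at 1.43, 1.90 and 3.57 FPKM, and amh, the anti-Müllerian hormone gene, lower still at 0.328, 0.364 and 0.873 FPKM. The hormone subunit gene lhb, best known from the pituitary, was present in the follicle at 14.2, 27.1 and 20.2 FPKM. The common subunit gene cga had no count in any control, and fshb had a mean of 0.0350 FPKM.

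Steroidogenic and theca genes had a median of 18.3 FPKM over the list. Of 22 found, 18 had a mean of at least 1 FPKM. The side-chain cleavage enzyme cyp11a1, which opens steroid synthesis from cholesterol, was at 124, 126 and 109 FPKM, with a range of 0.21 on the log2(FPKM + 1) scale. The 3β-hydroxysteroid dehydrogenase gene hsd3b1, which turns pregnenolone into progesterone, was at 42.8, 277 and 67.9 FPKM, several times higher in control 2 than in the other controls. cyp17a1, the hydroxylase and lyase at the branch to androgens, was at 31.5, 45.1 and 43.9 FPKM, and star, which carries cholesterol into mitochondria, at 24.8, 11.6 and 18.4 FPKM. star was lowest in control 2, unlike hsd3b1. Further members were the cholesterol uptake receptor scarb1 at 82.0 ± 6.85 FPKM (SD, n = 3), hsd17b12b, an enzyme of fatty acid elongation and steroid reduction, at 92.1 ± 14.5 FPKM, and hsd17b3, which makes testosterone in mammals, at 73.8 ± 37.5 FPKM. Little or no signal came from 2 genes of the list: hsd20b2 had a mean of 0.163 FPKM and cyp11c1, the 11β-hydroxylase of 11-ketotestosterone synthesis, 0.0558 FPKM. Among steroid receptors other than pgr, the androgen receptor ar was at 23.2, 45.6 and 24.0 FPKM, the oestrogen receptor esr2b at 9.37, 19.9 and 9.70 FPKM, and the membrane progestin receptor paqr7b, known for its part in maturation of fish oocytes, at 0.416, 0.391 and 0.385 FPKM.

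Epithelial and junction genes summed to 2905, 3893 and 3744 FPKM, more in each control than the granulosa, theca, stroma or endothelial list. They were led by the claudins given above. Libraries of whole follicles do not assign these transcripts to the wall or to the oocyte. epcam, an adhesion molecule, was at 446, 470.4 and 595 FPKM and ctnnb1, β-catenin, at 106, 147 and 136 FPKM. cdh1, E-cadherin, was at 63.1, 172 and 54.0 FPKM and the keratin krt8 at 70.29, 159 and 87.3 FPKM, both highest in control 2. Of 32 genes of stroma and extracellular matrix, 28 had a mean of at least 1 FPKM. Their leading members were timp2a, an inhibitor of metalloproteinases, at 93.3, 215 and 72.8 FPKM, lamb1a, a laminin chain of basement membrane, at 53.9, 119 and 62.4 FPKM, and acta2, smooth muscle actin, at 46.3, 103 and 53.1 FPKM. Each was highest in control 2.

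Markers of other cells were low. Endothelial genes were detected at a few FPKM, led by the vascular receptor kdrl at 12.6, 16.2 and 8.82 FPKM and plvapb, of fenestrated vessels, at 5.29, 10.1 and 6.06 FPKM, and the 18 genes summed to 42.6, 74.7 and 45.5 FPKM. Of 26 macrophage and neutrophil genes, 15 had a mean of at least 1 FPKM, and the list summed to 52.0, 129.9 and 87.2 FPKM. The antigen presentation genes cd74b and cd74a led it at 7.33, 30.2 and 13.2 FPKM and 6.11, 30.3 and 14.0 FPKM, lowest in control 1. The macrophage receptor csf1ra was at 0.704, 2.86 and 2.24 FPKM. Of 15 lymphocyte genes, 3 reached a mean of 1 FPKM, and the highest, cd3eap, is better known as a subunit of RNA polymerase I than as a T-cell gene. Of 17 erythrocyte genes, 8 reached that level, with the globin hbaa1 at 23.3, 34.3 and 54.4 FPKM. Of 15 muscle genes 3 did. Of the 11 genes of the testis and male pathway list 2 did, gsdf and sox9b. They were at 1.29, 1.55 and 6.05 FPKM and 2.12, 2.00 and 2.14 FPKM. Of these 2, gsdf is also a member of another list used here, so it does not mark testis alone. The markers were those of the labelled tissue. Oocyte and envelope lists summed to at least 5461 and 6180 FPKM in each control. Granulosa and theca lists summed to at least 755 and 708 FPKM. Blood cells were present, with erythrocyte and macrophage and neutrophil lists at up to 161 and 129.9 FPKM. The lists for muscle, testis and liver reached at most 14.7, 11.0 and 7.89 FPKM.

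**Figure D2:**
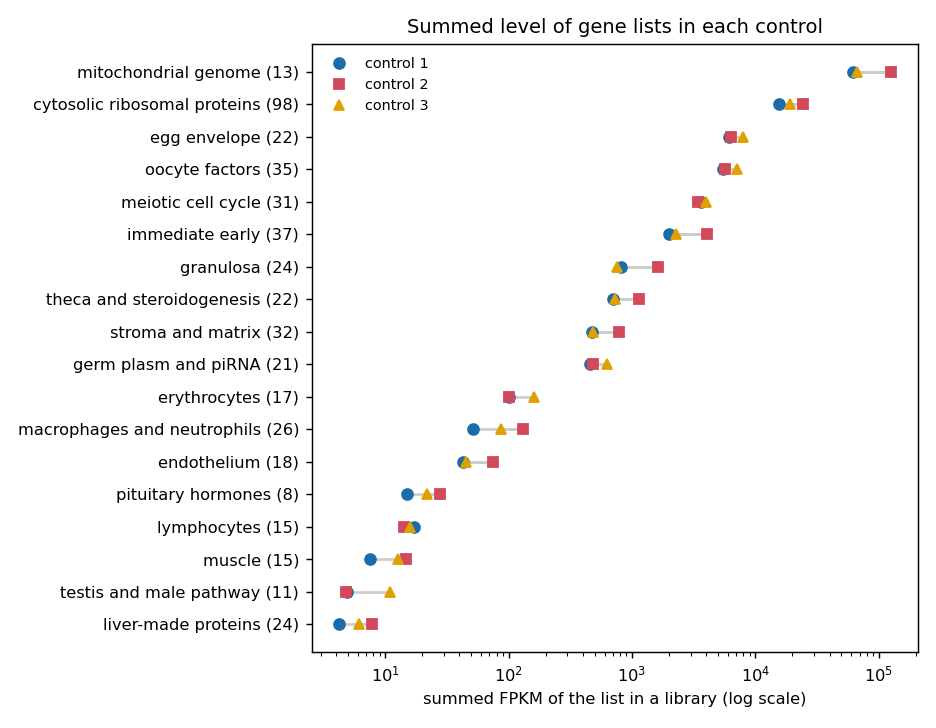
Summed FPKM of 18 gene lists in each control on a log scale, with the number of genes found in parentheses and 1 symbol per library. Control 2 (squares) lies apart to the right for the mitochondrial, immediate early, granulosa and theca lists, and control 3 (triangles) is the highest for the egg envelope, oocyte and germ plasm lists.

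Control 2 differed from the other controls in the same direction over many wall genes. Of the 20 granulosa genes of at least 1 FPKM, 1, 15 and 4 were highest in controls 1, 2 and 3, whereas 38.0%, 36.3% and 25.7% of all genes of at least 1 FPKM were. The theca and steroidogenesis list had 13 of 18 genes highest in control 2, the stroma list 18 of 28, the endothelial list 12 of 14 and the macrophage and neutrophil list 11 of 15. With every library rescaled to sum to 1000000 (TPM), a scaling under which the median over all genes in control 2 lay at -0.14 on the log2 scale relative to each gene's mean over the controls, from near 0 before, control 2 was highest for 24.7% of all genes. It was then the highest for 15 of 20 granulosa genes, 8 of 18 theca genes, 14 of 28 stroma genes, 10 of 14 endothelial genes and 7 of 15 macrophage and neutrophil genes. With the deposited FPKM, 20 of 31 oocyte factors and 17 of 22 envelope genes were highest in control 3, and 4 and 2 in control 2. The germ plasm list had 12 of 19 genes highest in control 3. By count of members, not all oocyte lists did so: 16 of 31 meiotic and 9 of 18 histone and chromatin genes were highest in control 1. Of these 2 lists, 10 and 6 genes were highest in control 3. Their sums were nevertheless highest in control 3. The meiotic list summed to 3656, 3458 and 3975 FPKM and the histone and chromatin list to 3607, 3302 and 3649 FPKM in controls 1, 2 and 3.

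A ratio of lists within a library does not depend on how libraries are scaled. The summed FPKM of the egg envelope list was 113%, 112% and 112% of that of the oocyte factors in controls 1, 2 and 3, and thus almost fixed. The granulosa list was 15.0%, 28.2% and 10.7% of the oocyte factors, and 7.04%, 15.0% and 5.90% when its dominant gene inha was left out. The theca and steroidogenesis list was 13.0%, 19.8% and 10.2%, and 12.2%, 14.9% and 9.27% without hsd3b1. For stroma the values were 8.64%, 13.7% and 6.78%, for endothelium 0.780%, 1.31% and 0.644%, and for macrophages and neutrophils 0.951%, 2.27% and 1.23%. The ratio was highest in control 2 for the granulosa, theca, stroma, endothelial and macrophage and neutrophil lists. This direction was not particular to them. Cytosolic ribosomal proteins were at 284%, 424% and 272%, heat shock genes at 29.5%, 36.6% and 31.1% and muscle genes at 0.139%, 0.257% and 0.180%. The germ plasm, meiotic, histone, yolk processing, mitochondrial ribosomal, cholesterol synthesis and testis lists had their highest ratio in another control. Of the other blood cell lists, erythrocytes were at 1.86%, 1.78% and 2.28%, lowest in control 2. Lymphocytes were at 0.312%, 0.250% and 0.225%, highest in control 1. The 2 genes named hbba1 gave 31.0, 2.26 and 53.6 FPKM of erythrocyte sums of 101.7, 101.7 and 161 FPKM. The erythrocyte ratio was lowest in control 2 only with these 2 genes included. The lymphocyte list had 3 genes of at least 1 FPKM, led by cd3eap, so its ratio says little about lymphocytes.

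Immediate early genes, which many cells transcribe within minutes of a stimulus, moved with the same library. Of 33 such genes of at least 1 FPKM, 27 were highest in control 2, and still 25 with TPM. The list summed to 1983, 4038 and 2260.3 FPKM. junbb, an AP-1 subunit, was at 284, 747 and 419 FPKM, socs3a, an inhibitor of cytokine signalling, at 217, 528 and 267 FPKM, fosab, another AP-1 subunit, at 181, 383 and 193 FPKM, and egr1, a zinc-finger factor, at 153, 377 and 199 FPKM. Control 2 was the highest for all 4. btg2 and dusp1 were less spread, at 287, 401 and 258 FPKM and 280.5, 248 and 169 FPKM, and dusp1 was lowest in control 3. By count of members, heat shock genes did not share the pattern, with 2, 7 and 9 of 18 genes highest in controls 1, 2 and 3. Their ratio to the oocyte factors, given above, was nevertheless highest in control 2. hspa5, a chaperone of the endoplasmic reticulum, was at 341, 637 and 667 FPKM and hsp90ab1, a cytosolic chaperone, at 347, 449.9 and 355 FPKM.

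Cytosolic ribosomal protein genes also ran higher in control 2, with 78 of 92 highest there and 63 of 92 with TPM. They held 4.13% ± 0.591 of the summed FPKM (SD, n = 3). The mitochondrial ribosomal protein genes, encoded in the nucleus, did not: 19 of 74 were highest in control 2 and 43 in control 3. Of 98 nuclear genes for oxidative phosphorylation, 46 (46.9%) were highest in control 2, against 36.3% of all genes. With TPM 24 of the 98 (24.5%) were, against 24.7% of all genes, and 45 were highest in control 3. The higher mitochondrial genome share of control 2, 24.1% of summed FPKM, came with no like excess of the nuclear genes for mitochondrial ribosomes. Relative to the oocyte factors, those nuclear genes were at 40.2%, 39.6% and 35.2% in controls 1, 2 and 3. The nuclear oxidative phosphorylation genes were at 90.1%, 96.3% and 77.2%, highest in control 2. The granulosa, immediate early, ribosomal and mitochondrial genome lists were all high in the same library, and the part of one in the values of another was not tested.

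**Figure D3:**
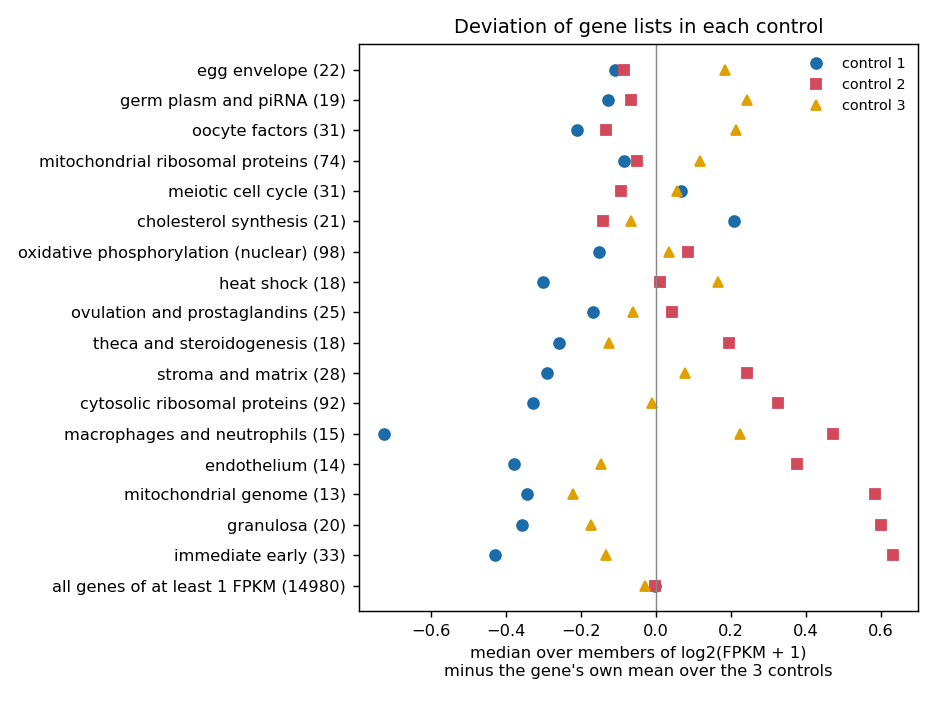
Median over the members of each list of log2(FPKM + 1) minus the gene's own mean over the 3 controls, with the number of members of at least 1 FPKM in parentheses. The granulosa and immediate early lists lie at 0.60 and 0.63 in control 2, the oocyte factors at -0.13 in control 2 and 0.21 in control 3, and all genes within 0.03 of 0.

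Most genes differed little among the controls. Over the 9757 genes with a mean of at least 5 FPKM, the range of log2(FPKM + 1), highest minus lowest library, had a median of 0.55, with quartiles of 0.33 and 0.86. It reached 2, or 4-fold after 1 FPKM is added, for 176 genes (1.80%), which are called variable here. It reached 3 for 47 genes and 4 for 21. Without control 2, 58 genes were variable, 52 of them among the 176. Without control 1 there were 95, of which 81 were among the 176, and without control 3 there were 117, of which 104 were. Both the range and the mean of at least 5 FPKM are then taken over the remaining libraries. Of the 176, 76 were highest in control 2, 55 in control 3 and 45 in control 1. Over all genes of at least 1 FPKM, 36.3%, 25.7% and 38.0% were highest in controls 2, 3 and 1. Lowest in control 1 were 82 of the 176, in control 2 60 and in control 3 34. Each gene was also placed by the library beyond the larger gap between its sorted log2 values. By this rule 44 genes were high in control 2, 23 in control 3 and 20 in control 1. Low in control 2 were 39 genes, in control 1 37 and in control 3 13. The rule places every gene, also those whose values rise in even steps. Variable genes had a median of 1023.5 summed counts, against 2180 over the genes of at least 5 FPKM, and 3 of them had under 50 counts. Clone or locus names, or none, were carried by 47.7% of variable genes and by 17.1% of genes at that level. Of 585 list genes at that level, 11 were variable, a share close to the 1.80% over all genes.

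The widest spread was that of genes seen in control 3 almost alone. ecm1a (ENSDARG00000100535), an extracellular matrix protein gene, was at 0.182, 0.476 and 703 FPKM, from 2, 5 and 8330 counts, a range of 9.22. mmp13a (ENSDARG00000114451), a collagenase, was at 0.130, 0.0272 and 243 FPKM, from 5, 1 and 10083 counts. apoeb, an apolipoprotein E gene, was at 0.283, 1.84 and 234 FPKM. All 3 genes were at most at 1.84 FPKM in controls 1 and 2. Their place among the 1000 most abundant by mean, and their mean above 5 FPKM, thus came from control 3 only. A second gene named mmp13a (ENSDARG00000012395) was at 0, 0 and 7.26 FPKM, so both copies were highest in the same library, although reads may be split between them.

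Further variable genes at lower levels, grouped here by the same pattern, were also highest in control 3. The calcium-binding protein gene s100a11 was at 0, 0 and 18.8 FPKM, mmp11b, a stromelysin, at 0.460, 0.306 and 17.3 FPKM, and mafbb, a transcription factor, at 4.33, 7.11 and 39.3 FPKM. The amino acid transporter genes slc6a19b and slc43a2b were at 0.445, 0.547 and 15.8 FPKM and 1.19, 3.07 and 24.0 FPKM. The gelatinase mmp9 was at 3.39, 1.86 and 12.6 FPKM. In each of these 6, which were grouped by this pattern, control 3 was at least 3 times the next library. Apart from mafbb, none of them reached 5 FPKM in control 1 or 2. The mean above 5 FPKM of these others thus came from control 3 only, for s100a11 from 0, 0 and 141 counts. Below the minimum of 5 FPKM, and named after their values were seen, apoc1, an apolipoprotein gene, was at 0.0849, 0 and 9.19 FPKM, lrp2a, the endocytic receptor megalin, at 0.453, 0.261 and 5.83 FPKM, and aqp3a, a water channel, at 0.0368, 0.115 and 4.63 FPKM. The macrophage and neutrophil list, which holds apoc1, summed to 87.2 FPKM in control 3 and 129.9 FPKM in control 2, and csf1ra was at 0.704, 2.86 and 2.24 FPKM. Which cells the genes high in control 3 came from was not tested.

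A further set of genes was close to absent from control 2 but not from the other controls. alox5b.3, an arachidonate lipoxygenase gene, was at 19.9, 0 and 33.1 FPKM, from 1314, 0 and 2361 counts. zgc:113314 was at 60.3, 0 and 43.3 FPKM and si:ch211-251f6.7 at 277, 1.11 and 169 FPKM. serpinf1, a secreted serpin, was at 13.8, 1.14 and 24.5 FPKM, cyp27a1.4, of the sterol 27-hydroxylase family, at 10.8, 0.0382 and 10.0 FPKM, and btr16, a bloodthirsty-related gene, at 8.29, 0.619 and 11.1 FPKM. These genes were present in both other libraries at similar levels, within 2-fold of each other. Both genes named hbba1, adult beta globin, were low there too, at 19.9, 0.906 and 38.3 FPKM and 11.1, 1.35 and 15.3 FPKM, whereas the alpha globin hbaa1 was at 23.3, 34.3 and 54.4 FPKM and so did not share this pattern.

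The ribonucleotide reductase gene rrm2 showed how a shared name bears on such calls. The variable gene of that name (ENSDARG00000078069) was at 251, 5.89 and 151 FPKM, low in control 2, and the other (ENSDARG00000020711) was at 145.6, 382 and 296 FPKM, highest in control 2. Their sum was 397, 388 and 446 FPKM, a range of 0.20, so the pair as a whole varied little and the split between the copies is uncertain. Of 6 gene symbols among the variable genes that several genes share, 3 had a sum that ranged by less than the minimum of 2, and rrm2 was the only one whose sum ranged by less than 1. The sum of irf1b ranged by 1.60 and those of cyp2x12, hbba1 and mmp13a by 2.72, 4.07 and 7.93.

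Other genes were low in control 3 or in control 1. stm, starmaker, a protein of otolith mineral, was at 101, 196 and 2.01 FPKM, from 5097, 9440 and 109 counts, and was thus low in control 3 only. rhbdl3, a rhomboid-like protein gene, hpcal1, a neuronal calcium sensor, fntb, the beta subunit of farnesyltransferase, and pip4p2, a phosphoinositide phosphatase, were low in control 1 instead. rhbdl3 was at 0.0400, 15.1 and 5.37 FPKM and hpcal1 at 0, 10.0 and 5.25 FPKM. fntb was at 1.54, 21.5 and 13.12 FPKM and pip4p2 at 0.805, 14.1 and 4.39 FPKM. All 4 were highest in control 2 and intermediate in control 3.

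Among members of the lists, the variable genes of the granulosa and theca lists were highest in control 2. Beside hsd3b1 and gata4, given above, inhbaa, an activin subunit, was at 2.68, 19.0 and 3.98 FPKM with a range of 2.44. The immediate early genes ier2a and fosb were at 29.0, 128 and 59.3 FPKM and 20.6, 67.0 and 15.6 FPKM. thbs1b, a thrombospondin of the matrix, differed, at 70.8, 26.9 and 15.5 FPKM, and was highest in control 1. In all, 15 genes were under 1 FPKM in 1 control and at 20 FPKM or more in another, and 9 of these had at least 1000 counts over the 3 controls, so their spread did not rest on few reads.

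**Figure D4:**
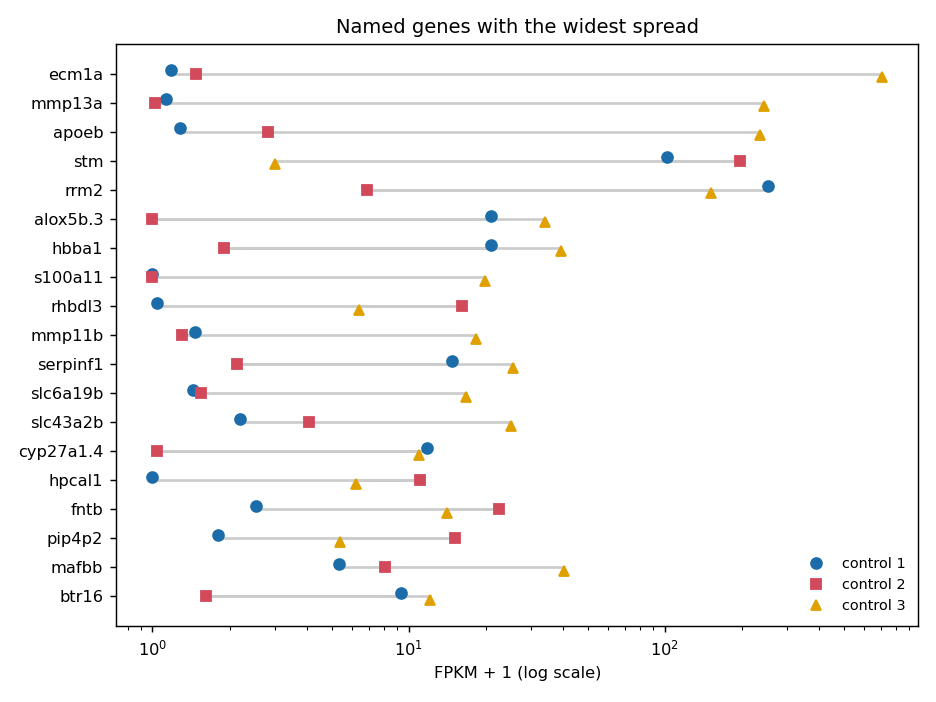
FPKM + 1 on a log scale in each control for 19 of the 20 genes with the widest range among genes of at least 5 FPKM that carry a gene symbol. Control 3 (triangles) stands alone to the right for ecm1a, mmp13a and apoeb at 703, 243 and 234 FPKM, and control 2 (squares) alone to the left for rrm2, alox5b.3 and hbba1.

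**Figure D5:**
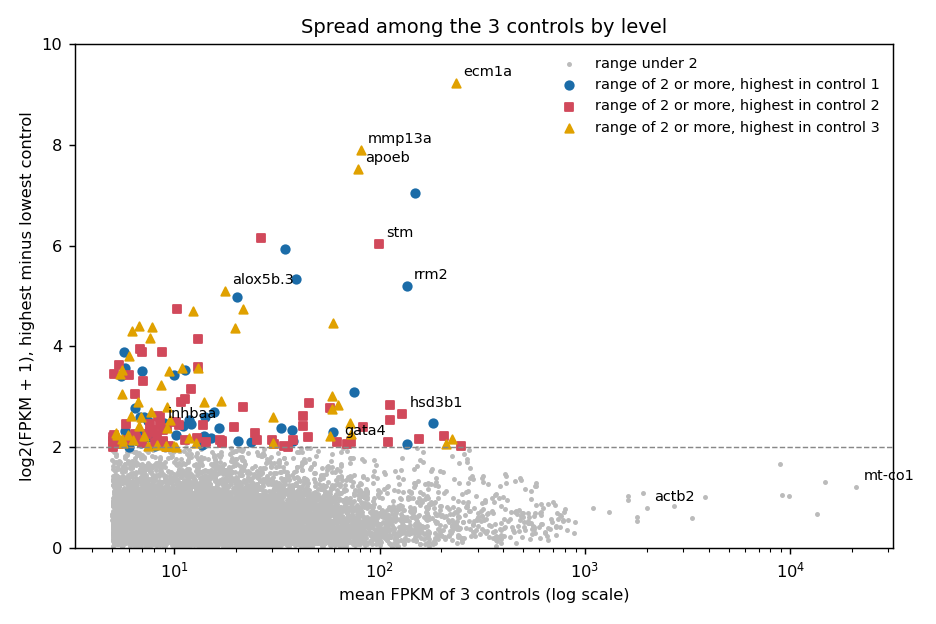
Range of log2(FPKM + 1) among the 3 controls against mean FPKM on a log scale for the 9757 genes of at least 5 FPKM. The dashed line at 2 separates the 176 variable genes, coloured by their highest library, from the others, and no gene above 1000 FPKM reached it.

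Just inside the limit of 2 lay cpm, trim55b and enc3, at 2.57, 13.4 and 11.6 FPKM, 1.75, 10.1 and 3.34 FPKM and 3.30, 10.9 and 16.4 FPKM. Just outside it lay ero1a, zdhhc20b and dap1b, at 1.15, 7.58 and 6.60 FPKM, 20.2, 4.29 and 9.73 FPKM and 188, 46.2 and 163 FPKM.

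At the other end, 10 genes of at least 50 FPKM had the smallest spread. mfsd2ab, a lysophospholipid transporter gene, was at 63.9, 63.9 and 64.2 FPKM. hdlbpa, the RNA-binding protein vigilin, was at 116, 115 and 115 FPKM, and atp5f1b, the beta subunit of ATP synthase, at 375, 364 and 371 FPKM. The RNA-binding genes hnrnpabb, hnrnpaba and rbm4.3 and the nucleolar gene nop58 were also in this set, at 175 ± 2.40, 53.3 ± 0.973, 123 ± 2.23 and 68.7 ± 1.05 FPKM (SD, n = 3). pgk1, a glycolytic kinase, txndc5, a disulfide isomerase, and tssc4 completed it at 60.7 ± 1.17, 66.8 ± 0.836 and 52.5 ± 0.625 FPKM. All 10 ranged by at most 0.053 on the log2(FPKM + 1) scale, and with 3 libraries the order among them carries little weight.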

How the data were processed

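Poly-T-selected RNA of full-grown follicles was sequenced in 11 libraries, and the 3 control libraries were used. For 35889 genes the authors deposited raw counts and, in a separate table, FPKM values. Of tools, the submitters' processing notes give only DESeq2 1.20.0, and the aligner, counter, strand setting and build were not given in the sources used here. Within each library the FPKM values equal the deposited counts divided by 1 fixed length per gene and by a total that is not the summed count, with a factor that differed by up to 1.11-fold between controls. Poly-T capture takes RNA with a poly(A) tail, so RNA with short tails or none is measured low.

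Genes were ranked by mean FPKM over the controls. Spread was the highest minus the lowest value on a log2 scale of the deposited FPKM plus a pseudocount of 1, and a gene was called variable at a range of at least 2 with a mean of at least 5 FPKM. Genes were matched by the symbols in the files or in the reference symbol table, which paired 29178 of 31901 Ensembl IDs, and 28 lists of genes were described. Named were the 20 highest genes with a symbol, up to 4 of each list, the 20 widest and all variable list members, the 10 steadiest of at least 50 FPKM, and 11 genes of endocrine and oocyte interest, 161 in all, of which 1 of the 20 widest is not reported here. Other genes were named after their values were seen. The members and lists were chosen with earlier results of these data known. Alternatives used TPM, TMM factors (edgeR 4.0.16), DESeq2 1.42.0 size factors on the deposited counts, other pseudocounts and filters, a correction for gene length, and each control left out in turn. The computation of the range was tested on simulated data. All columns of the tables could be mapped to labelled samples. Python 3.11.15, pandas 2.3.3 and matplotlib 3.10.9 were used.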

Additional observations from a re-analysis of the deposited data

How the results depend on the processing

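No paired analysis was possible because there was 1 group and no contrast. The number of genes of at least 1 FPKM stayed between 13146 and 17667, and the genes shared by the 100 highest of every control between 69 and 81, under all alternatives run, and 372 were shared when the 500 highest were taken. Leaving out each control in turn gave 14732 to 15234 genes, a share of the 100 highest of 28.1% to 33.9%, and 58 to 117 variable genes. The share of the 100 highest moved to 18.4% without the 13 mitochondrial protein genes, also after rescaling to 1000000, an alternative chosen after seeing the data. The variable genes numbered 374 with TPM, of which 160 were shared with the 176, and 455 after rescaling without mitochondrial genes, of which 175 were shared. Rescaling to 1000000 raises all values, so more genes pass 5 FPKM and the pseudocount of 1 weighs less. Other filters gave 405 genes with none or a mean of at least 1 and 55 with a mean of at least 20. A pseudocount of 0.1 gave 251 and one of 5 gave 57. TMM and DESeq2 size factors gave 175 and 176, with 166 and 168 shared. The means of all 161 named genes moved by less than 1 SD with TMM, and with TPM 149 moved by more, as all values are rescaled. With 3 libraries the spread itself is imprecise, and low genes rest on few counts.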

Other observations

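Genes for cholesterol synthesis leaned to control 1, in contrast to the wall lists. Of 21 such genes of at least 1 FPKM, 14 were highest in control 1, where 38.0% of all genes were. After a correction for gene length, 10 of the 21 (47.6%) were highest there, against 34.3% of all genes. fdps, which makes farnesyl diphosphate, was at 25.5, 11.4 and 16.5 FPKM and hmgcs1, at the entry to the mevalonate pathway, at 37.7, 27.9 and 29.0 FPKM. soat1, which esterifies cholesterol for storage, was at 48.7, 62.7 and 32.4 FPKM and differed from both, with its highest value in control 2. The list held 0.0627% ± 0.0113 of the summed FPKM (SD, n = 3).

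Genes of ovulation and prostaglandin synthesis were mostly low. Of 38 found, 25 had a mean of at least 1 FPKM. The cyclooxygenase genes ptgs2a and ptgs2b, whose products open prostaglandin synthesis, were at 1.12, 0.322 and 3.81 FPKM and 7.18, 7.09 and 4.14 FPKM. The ligands of the epidermal growth factor family hbegfa and btc were at 84.8, 71.7 and 73.0 FPKM and 34.1, 20.2 and 23.1 FPKM, whereas areg was at 1.03, 1.09 and 0.533 FPKM. The protease genes adamts1 and mmp2 were at 12.3, 4.97 and 4.68 FPKM and 13.0, 33.4 and 15.0 FPKM, adamts1 highest in control 1 and mmp2 in control 2.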
